A study of Mus musculus with 12 samples.

Results

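The peroxisome module comprised 44 genes, of which 13 were Pex genes for peroxisome assembly, 6 encoded other proteins of the peroxisomal membrane and 25 encoded peroxisomal enzymes. Members were taken by name, and all 44 were found among the 53465 genes of the count table after Ensembl identifiers were matched to GENCODE M21 symbols. Read counts had been obtained from liver tissue of C57BL/6N mice that were young (3 months), middle-aged (12 months) or aged (18 months). Each age was represented by 4 labelled livers, taken here as separate animals. The study's methods name male mice, and the labels give no treatment or engineered allele for any group. The labels' extraction note covers young and old livers only and the series text gives a smaller number of replicates per age. The number of separate animals per age and the preparation of the middle-aged libraries are therefore uncertain. An age difference cannot be told apart from a difference in preparation between the groups.

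Peroxisomes are membrane-bound organelles that shorten very long, branched and dicarboxylic fatty acids, break down urate, glycolate and D-amino acids, and remove the hydrogen peroxide that their oxidases release. Pex proteins build the organelle: some insert its membrane proteins, Pex5 and Pex7 carry enzymes made in the cytosol to a docking complex in the membrane, and others recycle these receptors or divide the organelle. Hepatocytes are rich in peroxisomes, and in rodents many of the fatty acid enzymes are transcribed under the control of the nuclear receptor PPARα, which is encoded by Ppara.

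Gene counts ranged from 8124312 to 10527159 per liver. Between 16361 and 17563 genes had at least 1 count in 10 of the livers, against 22284 for young replicate 3 and 19982 for replicate 1 of the middle-aged livers. Counts are given below after division by DESeq2 size factors ("normalised counts"). Of the 8 hepatocyte markers 7 had counts and together gave at least 747138 normalised counts in each liver, whereas the 8 markers of kidney, pancreas and fat gave 0.874 to 175. Of the markers of other liver cells, 1 of 10 for Kupffer cells and 1 of 5 for cholangiocytes (Sox9) were called between aged and young livers, Sox9 again between aged and middle-aged livers (log2 fold change 0.95), and 1 of 6 for lymphocytes (Ighm, 1.71) between middle-aged and young livers. All were higher in the older group, and the summed Kupffer markers ran from 3884 to 7051 in young and 4026 to 6721 in aged livers. Their part in the results below was not tested. The 92 spike-in RNAs took 1.59% to 10.6% of all counts, and 27 of 36 abundant spike-ins did not overlap between replicates 1 and 2 and replicates 3 and 4 of the ages, so calls that differ within either of these sets are named beside the members. Liver tissue holds several cell types, and fewer cells of a type and less RNA per cell cannot be told apart in these data.

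The promoters of 3 members that changed with age and of 2 Pex genes are shown because they set the few CG dinucleotides before Acot3 beside the many before Pex3. Each is the 250 bases before the RefSeq transcription start (GRCm38.p6), 5′ to 3′ on the gene's own strand, with every CG dinucleotide in capitals. The neighbouring thioesterase genes Acot3 (chr12:84051894-84052143, plus strand) and Acot4 (chr12:84038129-84038378, plus strand) both rose with age. Nudt7 (chr8:114133324-114133573, plus strand) had the largest fall between aged and young livers, and the last 17 bases of its window lie inside the gene as GENCODE M21 draws it. Pex3 (chr10:13553143-13553392, minus strand) has the most CG dinucleotides of the Pex members, and Pex11a (chr7:79743132-79743381, minus strand) had the largest fold change among them.
Acot3: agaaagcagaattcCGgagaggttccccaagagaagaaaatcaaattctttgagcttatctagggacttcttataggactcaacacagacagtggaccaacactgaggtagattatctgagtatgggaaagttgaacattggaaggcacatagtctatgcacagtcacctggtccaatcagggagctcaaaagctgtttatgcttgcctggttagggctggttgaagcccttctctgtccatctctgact
Acot4: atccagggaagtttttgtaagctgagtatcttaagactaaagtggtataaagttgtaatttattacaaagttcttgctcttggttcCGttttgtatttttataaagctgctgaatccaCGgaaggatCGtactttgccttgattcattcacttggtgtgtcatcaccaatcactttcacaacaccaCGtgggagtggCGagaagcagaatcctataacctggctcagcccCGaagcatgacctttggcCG
Nudt7: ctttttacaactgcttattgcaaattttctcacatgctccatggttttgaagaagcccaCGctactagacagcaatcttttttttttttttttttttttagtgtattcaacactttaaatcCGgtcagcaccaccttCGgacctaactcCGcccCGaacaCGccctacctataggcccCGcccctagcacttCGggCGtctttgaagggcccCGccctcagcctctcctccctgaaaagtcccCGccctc
Pex11a: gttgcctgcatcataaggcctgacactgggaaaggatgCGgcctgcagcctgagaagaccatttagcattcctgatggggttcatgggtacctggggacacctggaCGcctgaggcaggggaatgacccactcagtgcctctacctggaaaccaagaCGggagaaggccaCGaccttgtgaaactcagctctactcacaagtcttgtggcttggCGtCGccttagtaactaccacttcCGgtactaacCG
Pex3: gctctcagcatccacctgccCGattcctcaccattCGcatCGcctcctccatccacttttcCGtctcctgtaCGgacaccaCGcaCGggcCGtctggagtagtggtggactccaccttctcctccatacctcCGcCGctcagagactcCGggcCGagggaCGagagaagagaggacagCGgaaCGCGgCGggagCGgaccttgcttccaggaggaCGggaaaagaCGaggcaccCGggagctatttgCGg

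A window was found for 35 of the 44 members, but not for Abcd2 or Mpv17l. The windows of Uox, Scp2, Acaa1a, Acox2 and Nudt19 lie wholly inside the gene as GENCODE M21 draws it, and others lie partly inside. All of them enter the counts below. The Acot3 window held 1 CG dinucleotide and the Acot4 window 7, against 11 for Nudt7, 8 for Pex11a and 22 for Pex3. The median was 13 (range 6 to 22) over 11 Pex members and 9 (range 1 to 25) over 21 enzymes, beside 6 over all 27025 mouse promoters in the table. A member's window is at the RefSeq start nearest its GENCODE gene start, but all promoters use the first start listed for each gene. Figures for members and for all promoters, those for motifs included, thus rest on different rules. The 6 members with a window that were called in any test below had a median of 5.5 (range 1 to 11), and the 29 that were not called had a median of 10 (range 1 to 34). The direct repeat AGGTCANAGGTCA, the classical element for PPARα with its partner RXR, was searched on both strands and occurred in 0 of the 35 windows and in 0.0370% of all promoters. Its hexamer AGGTCA, which the repeat also contains, on either strand, occurred in 4 of 35 (Acot4, Cat, Pex11g and Scp2, 11.4%) and in 13.8% of all promoters. These are descriptions of letters in 250 bases and say nothing of binding.

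Members differed far more in level from each other than between ages. Per kilobase of annotated exon, the enzymes had a median of 1138 normalised counts over the 23 members that averaged 10 or more, against 96.6 over the 13 Pex members and 211 over the 6 other membrane proteins. Scp2, the thiolase and sterol carrier of branched-chain oxidation, was highest at 11279 normalised counts per kilobase, followed by the hydrogen peroxide scavenger Cat at 10396 and the phytanate hydroxylase Phyh at 9558. Among the Pex genes the range ran from 14.0 for Pex10 to 554 for Pex16. All 44 members together took 1.55% to 2.06% of the gene counts of a liver, and Scp2, Cat, Uox and Phyh held 58.1% to 63.7% of that share. Hao2 and Dao, oxidases of hydroxy acids and D-amino acids, were near the detection limit. Hao2 had 3 counts over the young, 6 over the middle-aged and 20 over the aged livers, and Dao had 3 counts in a single middle-aged liver and 0 in the other 11. A count of 0 allows up to 3 counts in a liver, or a CPM (the count scaled to a common library total) of 0.285 to 0.369. Of the 20 aged counts, 16 were in aged replicate 3. The aged-to-young ratio of Hao2 was 5.58, with a 95% counting interval of 1.65 to 29.3 that covers counting error only. Both fell below the DESeq2 filter on low counts, which left 42 members tested in each comparison with young livers and in the 3-age test. For aged against middle-aged livers Acot3 fell below it too, which left 41.

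**Figure D1:**
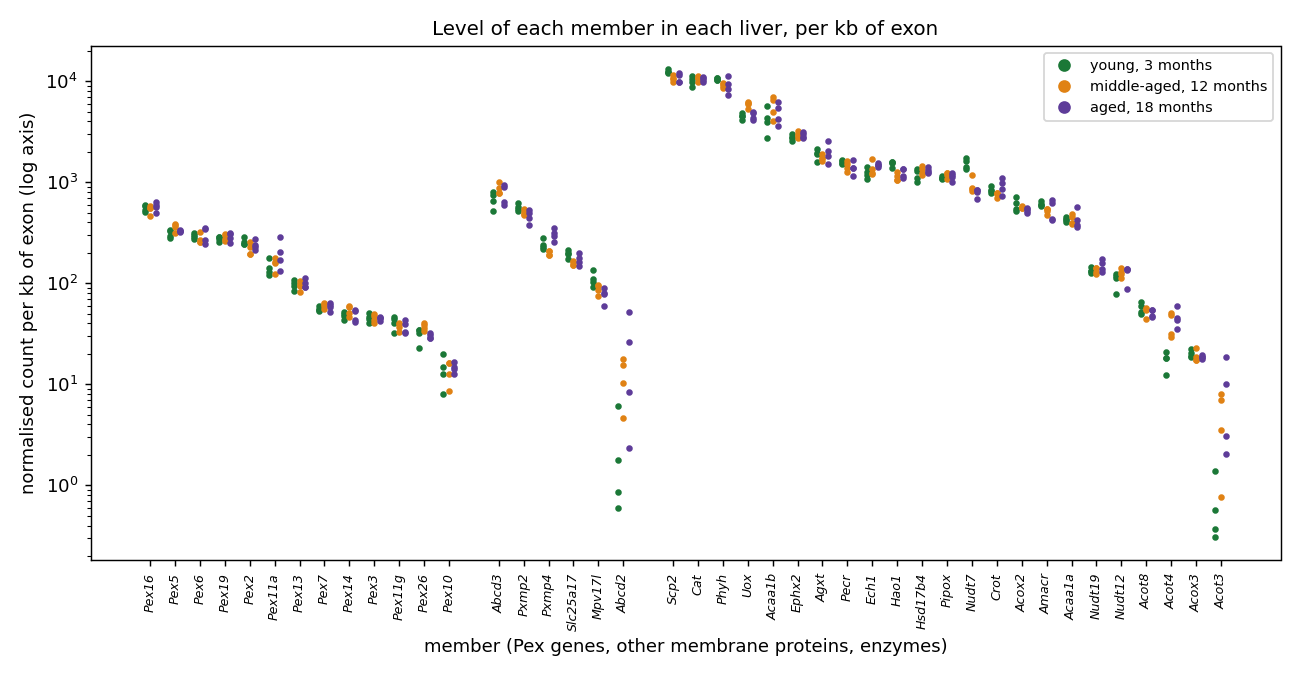
Level of the 42 members that averaged 10 or more normalised counts, as normalised counts per kilobase of exon on a log axis. Each point is 1 liver, coloured by age, and members are grouped as Pex genes, other membrane proteins and enzymes. The ages of most members lie on top of each other, while Abcd2, Acot4 and Acot3 spread upwards from the young livers.

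The first question was whether the assembly machinery changed with age. None of the 13 Pex members was called between any pair of ages or over the 3 ages (DESeq2 adjusted p under 0.05). Unadjusted p was under 0.05 for 1 member between aged and young livers, 2 between middle-aged and young, 1 between aged and middle-aged and 1 over the 3 ages. edgeR without a count filter called 1, Pex11a, between aged and young livers and over the 3 ages, and after a count filter it called 0. At the share of all tested genes that passed between aged and young livers, 3.58%, a count of 0 in 13 is near the background and is not a result about these genes. Their fold changes bound what could have been missed. The median log2 fold change over the 13 was 0.04 for aged against young (all tested genes, -0.0003), and single values ran from -0.14 to 0.48. The estimate was within 10% of no change for 11 of the 13, and the 95% intervals reached from -0.51 to 0.90. For middle-aged against young livers the median was -0.01 (range -0.24 to 0.26), and for aged against middle-aged livers it was 0.02 (range -0.31 to 0.35).

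The import receptors are given in full. Pex5, which binds the carboxy-terminal targeting signal of most peroxisomal enzymes, had 1289.7, 1158, 1110.2 and 1328 normalised counts in the young livers, 1481, 1516, 1429 and 1243 in the middle-aged and 1309.7, 1291, 1315 and 1265 in the aged. The aged values lay inside the young range, and 3 of the 4 middle-aged values lay above it. Its log2 fold change was 0.08 (SE 0.08) for aged against young livers (DESeq2 adjusted p = 0.712) and 0.21 (SE 0.08) for middle-aged against young livers (adjusted p = 0.102). The latter was called in 2 of 24 alternatives (adjusted p 0.0254 to 0.815): total-count scaling (log2 fold change 0.32) and leaving out middle-aged replicate 4 (0.27). Pex7, the receptor for the amino-terminal signal carried by thiolases and by Phyh, had 661, 647, 666 and 725 normalised counts in young livers, 771, 723, 675 and 748 in middle-aged livers and 766, 630.0, 699 and 735 in aged livers. All 3 ages overlapped. The log2 fold change for aged against young livers was 0.07, with a 95% interval of -0.10 to 0.23 and an adjusted p of 0.785.

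The other import steps moved as little between aged and young livers. For middle-aged against young livers the ends of the range were Pex2 and Pex26. Their log2 fold changes were -0.24 (SE 0.12, DESeq2 adjusted p = 0.212) and 0.26 (SE 0.14, adjusted p = 0.265). Pex3, Pex16 and Pex19, which place proteins in the membrane, had log2 fold changes of -0.02 to 0.07 for aged against young livers. The docking proteins Pex13 and Pex14 were at 0.03 and 0.0048, the ubiquitin ligase subunits Pex2 and Pex10 at -0.11 and 0.07, and the receptor export ATPase Pex6 and its membrane anchor Pex26 at 0.04 and -0.05. Pex11g, a relative of the division factor Pex11a, was at -0.14 (SE 0.16), but shares 41.1% of its exonic length with a gene on the opposite strand, as Pex14 does over 28.3%. Their counts are uncertain, since the strand setting of the counting is not given in the sources used here. Pex26 was the single Pex member whose groups did not overlap in a comparison: its 4 aged livers (162 to 181 normalised counts) lay below its 4 middle-aged livers (189.8 to 228), with a log2 fold change of -0.31 (SE 0.14) and a DESeq2 adjusted p of 0.384. Between aged and middle-aged livers, 6.55% of tested genes did not overlap.

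Pex11a, which elongates peroxisomes before they divide, had the largest fold change of the Pex genes. It had 412, 381, 447 and 571 normalised counts in young livers, 511, 568, 502 and 396 in middle-aged livers and 416, 540.4, 911 and 651 in aged livers. The groups overlapped: aged replicates 3 and 4 lay above all young livers, aged replicate 2 within and aged replicate 1 near the low end. Aged against young livers gave a log2 fold change of 0.48 (SE 0.21), with a 95% interval of 0.05 to 0.90 and a DESeq2 adjusted p of 0.224. Over 24 alternative settings it was called in 2, with adjusted p from 0.00355 to 0.9999: edgeR without a count filter, and DESeq2 without aged replicate 1 (log2 fold change 0.63, adjusted p = 0.0197). Aged against middle-aged livers (0.35, SE 0.21, adjusted p = 0.647) was called within replicates 3 and 4 alone (0.80, adjusted p = 0.0101), the lowest over 24 alternatives.

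**Figure D2:**
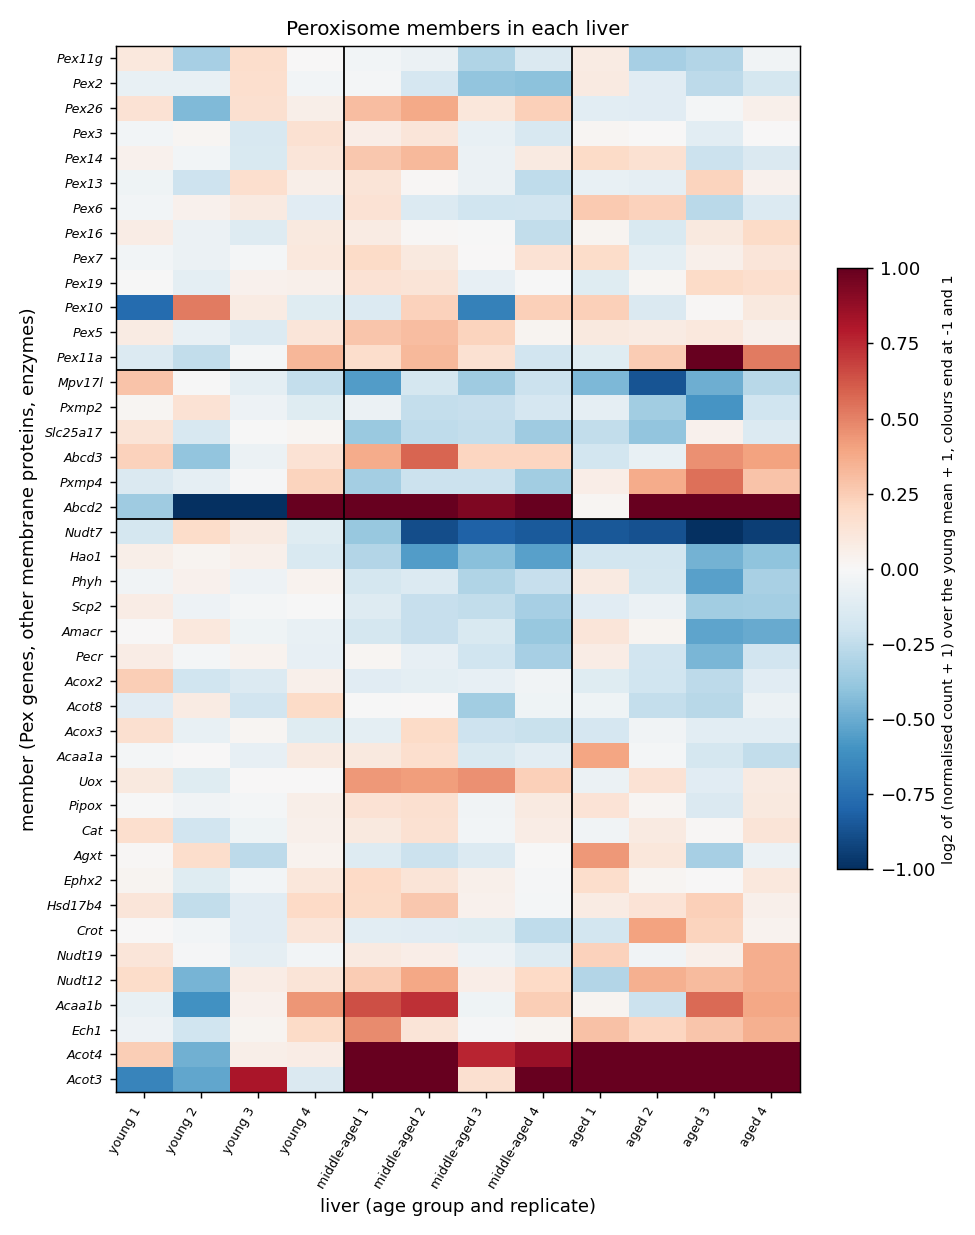
Each row is a member and each column a liver, with colour giving the log2 ratio of (normalised count + 1) to the mean of the young livers + 1, saturated at -1 and 1. Horizontal lines separate Pex genes, other membrane proteins and enzymes. The strongest colours of the Pex rows are Pex11a in aged replicates 3 and 4 and the low-count gene Pex10. Nudt7 and Acot4 change colour between the young and the older livers. Acot3 and Abcd2 do so in most livers. Acot3 in middle-aged replicate 3 and Abcd2 in aged replicate 1 stay near the young mean, and Abcd2 is high in young replicate 4.

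Between aged and young livers 6 of 42 members were called (14.3%, against 3.58% of all tested genes): Acot3, Acot4 and Abcd2 rose (1.87% of all tested genes did), and Nudt7, Hao1 and Mpv17l fell (1.71%). Of these, 4 were among the 23 tested enzymes and 2 among the 6 other membrane proteins. Between middle-aged and young livers 5 of 42 were called (11.9%, against 6.41%): Acot3, Acot4 and Uox rose (3.51% of all tested genes did), and Nudt7 and Hao1 fell (2.9%). Between aged and middle-aged livers 2 of 41 were called (4.88%, against 1.14%), with Pxmp4 higher (0.537% of all tested genes were) and Uox lower (0.606%) in the aged. Over the 3 ages 6 of 42 were called (14.3%, against 6.96%). edgeR without a count filter called 6 members between aged and young livers (3.09% of all genes), 6 between middle-aged and young (4.06%), 2 between aged and middle-aged (1.57%) and 8 over the 3 ages (5.25%). After a count filter it called 2 (1.42%), 3 (2.32%), 1 (0.108%) and 3 (1.93%). Pairs of these comparisons share a group of livers, so these counts do not support each other. When single livers were left out, the number called between aged and young livers ranged from 2 without aged replicate 3 to 11 without aged replicate 1, and was 3 without young replicate 1, 2 or 3. It was also 3 without both livers with many detected genes, young replicate 3 and middle-aged replicate 1. Nudt7 and Acot4 were called in all 24 alternatives for that comparison, and no other member was.

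The contrast between assembly genes and enzymes did not show in the medians of their signed log2 fold changes. The median log2 fold change of the Pex genes minus that of the enzymes was 0.00968 for aged against young livers. It was -0.00774 for middle-aged against young and 0.03 for aged against middle-aged livers. A similar difference per liver, from log2 of (normalised count + 1) relative to the young mean, had a pooled SD of 0.0779 within ages. That SD describes single livers and is no error of a difference between groups of 4. Between middle-aged and young livers the difference in median log2 fold change was 0.167 within replicates 1 and 2 alone, and 0.0779 without middle-aged replicate 3. For aged against young livers the 23 enzymes ran from -0.95 to 3.71 and the 13 Pex genes from -0.14 to 0.48, where the low-count gene Acot3 sets the upper end. For aged against middle-aged livers the enzymes ran from -0.37 to 0.82, again up to Acot3, which had no adjusted p there. The Pex genes ran from -0.31 to 0.35. The median absolute log2 fold change was 0.173 for the enzymes and 0.0665 for the Pex genes between aged and young livers. It was 0.146 and 0.110 between middle-aged and young livers, and 0.0595 and 0.104 between aged and middle-aged livers. These differences in range and size were not tested.

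**Figure D3:**
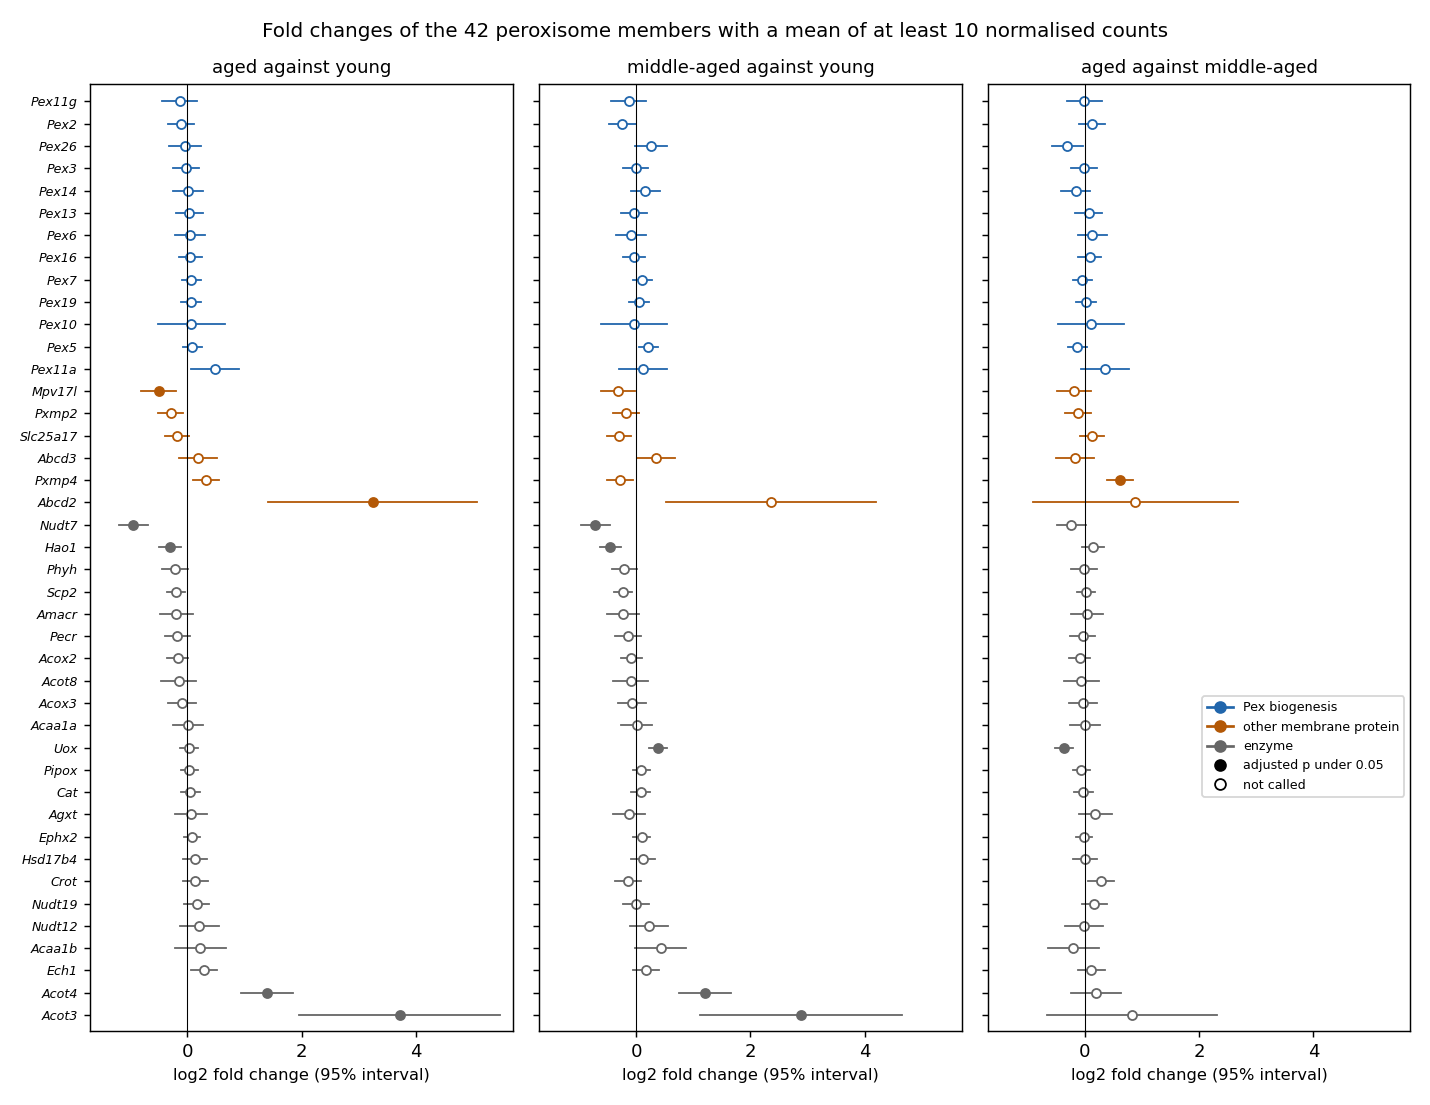
Log2 fold changes with 95% intervals from DESeq2 for the 42 members that averaged 10 or more normalised counts, in the 3 comparisons of ages. Filled points have an adjusted p under 0.05. The 13 Pex genes have open points in all 3 panels, and the filled points are 6, 5 and 2 enzymes or membrane proteins.

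Nudt7, a nudix hydrolase that cleaves coenzyme A and its esters inside peroxisomes, showed the lowest adjusted p of the module. It had 7546, 9686, 9067 and 7867 normalised counts in the young livers, 6565, 4608, 4872 and 4771 in the middle-aged and 4739, 4676, 3833 and 4445 in the aged. All young livers lay above all older livers, and middle-aged replicate 1 was the highest of the older ones. The log2 fold change was -0.95 (SE 0.13) for aged against young livers (DESeq2 adjusted p = 5.35e-10) and -0.71 (SE 0.13) for middle-aged against young livers (adjusted p = 9.03e-06). The first was called in 24 of 24 alternatives, and the second in 23, with the loss within replicates 1 and 2 alone (log2 fold change -0.62). The step from middle-aged to aged livers was -0.23 (SE 0.13) and was not called (adjusted p = 0.561). For the related hydrolases Nudt12, which acts on NADH, and Nudt19, which acts on coenzyme A, log2 fold changes for aged against young livers were 0.21 (SE 0.17) and 0.16 (SE 0.11), and neither was called. Nudt19 shares 35% of its exonic length with an antisense gene, so its count is uncertain.

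Acot4, a thioesterase that releases succinate and other dicarboxylic acids from coenzyme A, had 138, 82.8, 121 and 122 normalised counts in young livers, 339, 325, 197 and 211 in middle-aged and 235, 299.6, 398 and 288 in aged livers. No young liver reached any older liver, and the middle-aged and aged livers overlapped. Acot4 had a log2 fold change of 1.39 (SE 0.23) for aged against young livers (DESeq2 adjusted p = 1.02e-06) and 1.21 (SE 0.23) for middle-aged against young livers (adjusted p = 4.25e-05). The latter call was lost within replicates 3 and 4 alone (log2 fold change 0.74, adjusted p = 0.105, the highest over 24 alternatives, which went down to 1.84e-14).

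Acot3, the neighbouring thioesterase for longer fatty acyl chains, was low in all livers. It had 1.06, 1.27, 4.74 and 1.95 normalised counts in young livers, 23.8, 27.8, 2.65 and 12.0 in middle-aged and 7.03, 10.6, 64.7 and 34.9 in aged livers. The aged livers lay above all young livers, and middle-aged replicate 3 fell within the young range. Raw counts summed to 8, 70 and 131 over the young, middle-aged and aged livers. The fitted log2 fold change was 3.71 (SE 0.90) for aged against young livers (DESeq2 adjusted p = 0.00312) and 2.89 (SE 0.90) for middle-aged against young livers (adjusted p = 0.0296). The first was called in 21 of 24 alternatives (adjusted p 1.05e-10 to 0.0625), and was lost without aged replicate 3 (log2 fold change 2.97, adjusted p = 0.0625), whereas without young replicate 3 the log2 fold change was 4.35. Within replicates 1 and 2 alone it was 2.93 and had no adjusted p. The second was called in 13 of 24 (adjusted p 1.03e-05 to 0.112) and had no adjusted p in 6. It was not called without young replicate 1, 2 or 4 or without middle-aged replicate 1, 2 or 4, and its log2 fold change was 3.52 without young replicate 3, 4.48 within replicates 1 and 2 alone and 1.14 within replicates 3 and 4 alone.

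Acot3 (chr12:84052144-84060402) and Acot4 (chr12:84038379-84048601) lie next to each other on GRCm38. They share 312 and 615 exon bases with the antisense gene 4732463B04Rik, and 396 and 33 with Gm49366 on the same strand. They also resemble each other and other thioesterases of this cluster in sequence, so their single-gene counts are uncertain where the counting could split such reads. Acot8, which lies on another chromosome, had a log2 fold change of -0.16 (SE 0.16) for aged against young livers, and Crot, which moves shortened acyl chains on to carnitine for export, 0.14 (SE 0.11). Neither was called.

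Uox, the urate oxidase that starts the breakdown of urate to allantoin, was higher in middle-aged livers than at either other age. It had 24106, 20707, 22620.5 and 22589 normalised counts in young livers, 30414, 29989, 30882 and 26499 in middle-aged and 21652, 24897, 20801.5 and 24013 in aged livers. Every middle-aged liver lay above every young and aged liver, and the young and aged livers overlapped. Uox had a log2 fold change of 0.39 (SE 0.08) for middle-aged against young livers (DESeq2 adjusted p = 0.000282), -0.37 (SE 0.08) for aged against middle-aged livers (adjusted p = 0.00261) and 0.02 (SE 0.08) for aged against young livers (adjusted p = 0.942). edgeR did not call either step: the adjusted p was 0.0701 without a count filter and 0.0602 with one for the first, and 0.280 and 0.221 for the second. Over 24 alternatives the first was called in 20 (adjusted p 3.12e-05 to 0.239) and the second in 19 (0.000987 to 0.9999). Both were lost within replicates 1 and 2 alone (log2 fold changes 0.43 and -0.37) and within replicates 3 and 4 alone (0.33 and -0.35).

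Hao1, the glycolate oxidase that makes glyoxylate, had 3649, 3574, 3628 and 3158 normalised counts in young livers, 2860.5, 2375, 2615 and 2403 in middle-aged and 3078, 3079, 2526 and 2648 in aged livers. All young livers lay above all older ones, young replicate 4 by the least. Hao1 had a log2 fold change of -0.45 (SE 0.09) for middle-aged against young livers (DESeq2 adjusted p = 0.000284), which was called in 23 of 24 alternatives and lost within replicates 1 and 2 alone (adjusted p = 0.193). The smaller fall of aged against young livers, -0.31 (SE 0.09) with an adjusted p of 0.0373, was called in 7 of 24 (adjusted p 0.00890 to 0.9999). This call was lost within replicates 1 and 2 alone (log2 fold change -0.23), in both edgeR fits and with total-count scaling (-0.19). It held in 4 of the 12 fits without a single liver. For Agxt, which turns glyoxylate into glycine, the log2 fold change was 0.07 (SE 0.15) for aged against young livers, and the aged livers ran from 2548 to 4319 normalised counts.

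**Figure D4:**
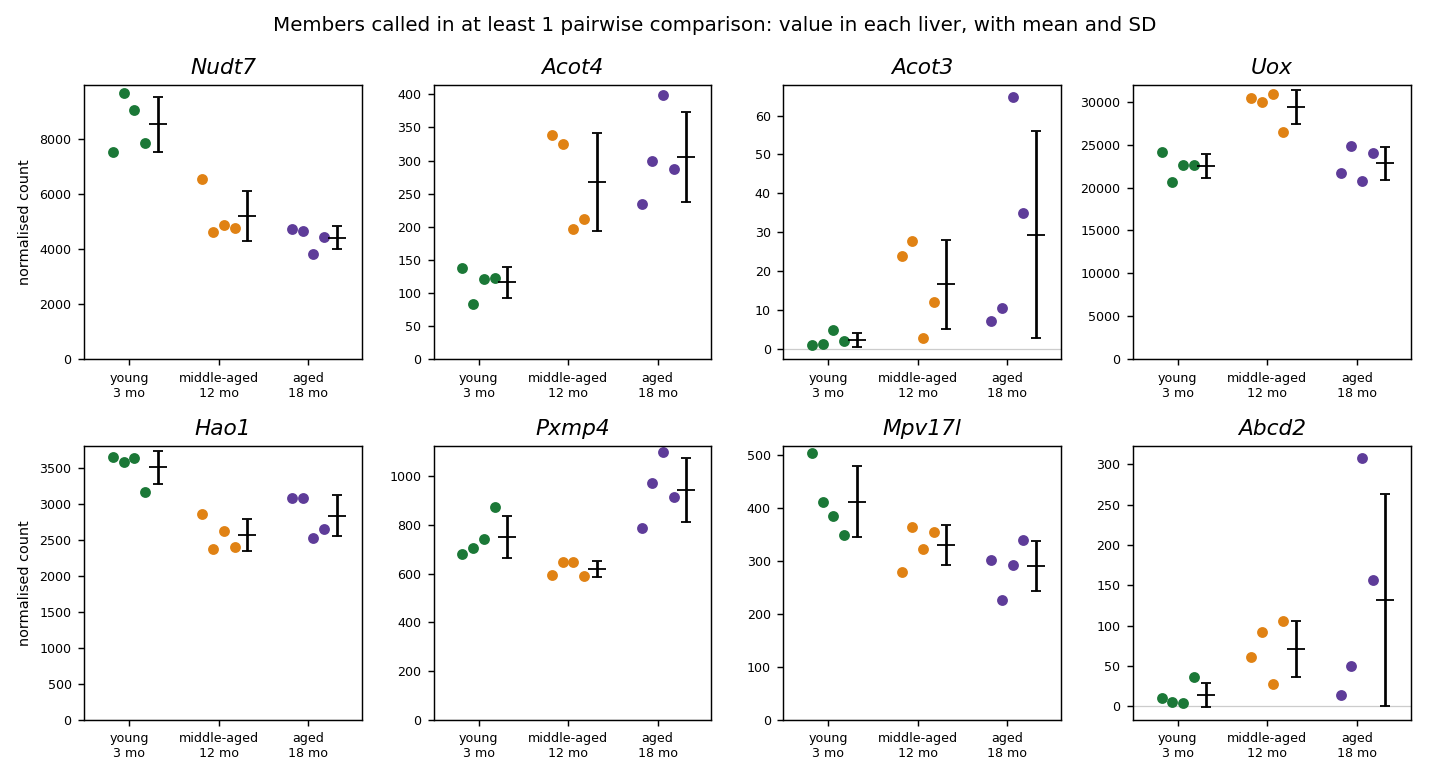
Normalised counts of the 8 members called in at least 1 pairwise comparison. Points are single livers and the bar beside each group is the mean with its SD over 4 livers. Young livers stand apart from the older ones for Nudt7, Acot4 and Hao1, middle-aged livers stand apart for Uox, and the groups of Abcd2 overlap.

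The membrane proteins moved in different directions. Pxmp4, a membrane protein of little known function, had 680.4, 707, 744 and 875 normalised counts in young livers, 593, 646, 647 and 589 in middle-aged and 788, 973, 1100.2 and 915 in aged livers. Middle-aged livers lay below all others, and the aged and young livers overlapped. Pxmp4 had a log2 fold change of 0.61 (SE 0.12) for aged against middle-aged livers (DESeq2 adjusted p = 0.000118), which was called in 23 of 24 alternatives and lost within replicates 1 and 2 alone, and 0.33 (SE 0.12) for aged against young livers (adjusted p = 0.0890).

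Mpv17l, a membrane protein linked to peroxisomal handling of reactive oxygen species, had 503, 411, 384 and 349 normalised counts in young livers, 279, 364, 322 and 355 in middle-aged and 301, 225, 293 and 339.7 in aged livers. The aged livers lay below all young livers, though aged replicate 4 and young replicate 4 were close. The log2 fold change was -0.51 (SE 0.15) for aged against young livers, with a DESeq2 adjusted p of 0.0360. It was called in 9 of 24 alternatives (adjusted p 0.0104 to 0.848), and 7 of the 12 fits without a single liver lost it. It was also lost within replicates 1 and 2 alone (log2 fold change -0.80) and within replicates 3 and 4 alone (-0.21).

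Abcd2, which carries very long-chain fatty acyl-CoA into the organelle, had 10.6, 5.09, 3.55 and 36.1 normalised counts in young livers, 61.6, 91.6, 27.4 and 105 in middle-aged and 14.05, 50.1, 308 and 156 in aged livers. The groups overlapped, and the aged livers alone spanned 14.05 to 308. The log2 fold change was 3.24 (SE 0.93) for aged against young livers (DESeq2 adjusted p = 0.0223) and 2.36 (SE 0.94) for middle-aged against young livers (adjusted p = 0.105). The aged call held in 14 of 24 alternatives (adjusted p 1.04e-37 to 0.218, the lowest from edgeR without a count filter), and was lost without young replicates 1, 2 or 3 or aged replicates 3 or 4. The log2 fold change was 2.40 without aged replicate 3 and 4.36 without young replicate 4. Within replicates 1 and 2 alone it was 2.02 and within replicates 3 and 4 alone 3.54, neither of them called. The middle-aged difference was called in 6 of 24 alternatives (adjusted p 3.67e-18 to 0.635), among them replicates 1 and 2 alone (log2 fold change 3.26), leaving out young replicate 4 (3.47) and a term for the spike-in sets (2.69). Its much more abundant relative Abcd3 had 3384 to 5212 normalised counts in young and 3909.9 to 6113 in aged livers, with a log2 fold change of 0.18 (SE 0.17). The carrier Slc25a17, for coenzyme A and other cofactors, lay lower in all middle-aged livers (429 to 468) than in all young livers (495 to 605), with a log2 fold change of -0.30 (SE 0.11) and an adjusted p of 0.0630. The pore protein Pxmp2 had a log2 fold change of -0.30 (SE 0.11) for aged against young livers (adjusted p = 0.131).

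None of the 10 members of fatty acid beta- and alpha-oxidation was called in any comparison, where unadjusted p was under 0.05 for 2 between aged and young, 1 between middle-aged and young and 0 between aged and middle-aged livers. edgeR called 1 of them, Acaa1b, between middle-aged and young livers without a count filter, and 0 after one. Beside the 3.58%, 6.41% and 1.14% of all tested genes that were called, 0 of 10 is near the background and is not a result about this group. The median log2 fold change for aged against young livers was -0.14, with single values from -0.22 to 0.28. The thiolase genes, which cut the shortened chain, gave different spreads. Acaa1a had 1864, 1889, 1784 and 2001 normalised counts in young livers, 2012, 2119, 1696 and 1749.9 in middle-aged and 2484, 1855, 1667 and 1588 in aged livers, and its log2 fold change for aged against young livers was 0.01 (SE 0.13), with a DESeq2 adjusted p of 0.987. Acaa1b had 7757, 5389.9, 8453 and 11140.2 in young livers, 12800.3, 13574, 7948 and 9729 in middle-aged and 8321, 7043, 12147 and 10729.6 in aged livers. Its groups overlapped throughout, its log2 fold change was 0.22 (SE 0.23, adjusted p = 0.712) for aged against young and 0.43 (SE 0.23, adjusted p = 0.254) for middle-aged against young, and within replicates 1 and 2 alone the latter was called (log2 fold change 1.01, adjusted p = 7.68e-05, the lowest over 24 alternatives, of which 2 called it). Aged against middle-aged livers (-0.20, SE 0.23) was also called only within replicates 1 and 2 alone (-0.78, DESeq2 adjusted p = 0.0343).

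Scp2 and Phyh, the most abundant genes of this group, had lower means in the older livers without being called. Scp2 ran from 41806 to 45504 normalised counts in young livers, 34405 to 39562.5 in middle-aged and 34069.9 to 41605 in aged livers. Neither older group overlapped the young livers, and the log2 fold changes were -0.23 (SE 0.08, DESeq2 adjusted p = 0.0530) for middle-aged and -0.21 (SE 0.08, adjusted p = 0.130) for aged against young livers. Phyh had log2 fold changes of -0.21 (SE 0.11, adjusted p = 0.267) and -0.22 (SE 0.11, adjusted p = 0.321) in the same comparisons. Its middle-aged livers (16218 to 18153) lay below all young livers (19229 to 20540.5). Its aged livers ran from 13647 to 21164, with aged replicate 1 above every young liver. Ech1, an isomerase for unsaturated chains, went the other way, with all aged livers (3229.8 to 3568) above all young livers (2429 to 3192), a log2 fold change of 0.28 (SE 0.12) and an adjusted p of 0.166. The branched-chain and bile acid enzymes Acox2, Acox3, Amacr and Pecr had log2 fold changes of -0.19 to -0.10 for aged against young livers, and the multifunctional enzyme Hsd17b4 0.13.

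Cat, which breaks down hydrogen peroxide, had 29542, 23053, 25552 and 27283 normalised counts in young livers, 28248, 29303, 25886 and 27764 in middle-aged and 25769.7, 28066, 26605 and 28891 in aged livers. The 3 ages overlapped. The log2 fold change for aged against young livers was 0.05, with a 95% interval of -0.11 to 0.21 and a DESeq2 adjusted p of 0.836. The epoxide hydrolase Ephx2 and the pipecolate oxidase Pipox were as steady, with log2 fold changes of 0.08 (SE 0.07) and 0.03 (SE 0.07).

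Groups of livers without overlap were also counted, since they need no model of spread. These counts still rest on the DESeq2 size factors and on the genes that passed its filter on low counts. Between aged and young livers this held for 7 of 42 members (16.7%, against 7.53% of all tested genes): Acot3, Acot4 and Ech1 were higher and Nudt7, Hao1, Mpv17l and Scp2 lower in the aged. Between middle-aged and young livers it held for 9 of 42 (21.4%, against 16.0%), of which 7 were lower. Between aged and middle-aged livers it held for 4 of 41 (9.76%, against 6.55%).

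Livers of 1 age differed from each other across members. Within an age the median coefficient of variation over the 42 members was 8.84% for young livers, 8.93% for middle-aged livers and 11.9% for aged livers. It was lowest for Pex5 in aged livers, at 1.75%, and highest for Abcd2 in young livers, at 109%. Young replicate 2 was the lowest young liver for 19 of 42 members, and middle-aged replicate 3 the lowest of its age for 19. Aged replicate 1 was the highest aged liver for 17 members and aged replicate 3 the lowest for 17. Aged replicate 3 was also the highest aged liver for 12 members: Acot3, Acot4, Abcd2, Abcd3, Pxmp4, Slc25a17, Acaa1b, Hsd17b4, Pex5, Pex11a, Pex13 and Pex19.

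A further 40 peroxisomal genes outside the module were examined, such as the plasmalogen enzymes. Of those tested, 0 of 36 were called between aged and young livers, 2 of 35 between middle-aged and young and 0 of 35 between aged and middle-aged (10, 9 and 2 at an unadjusted p under 0.05). The counts of calls are near or below the shares of all tested genes, 3.58%, 6.41% and 1.14%. At an unadjusted p under 0.05 all genes gave 2252, 2645 and 1225, out of the 28449 with at least 1 count. Of these 28449, 11804 averaged 10 or more normalised counts, against 35 of the 39 peroxisomal genes with counts. The unadjusted counts were therefore not compared as shares. edgeR called 3, 4 and 0 of 39 without a count filter, and 0 of 35 in each comparison after one. The 2 from DESeq2 were the tethering protein Acbd5, higher in middle-aged livers by 0.33 on the log2 scale (DESeq2 adjusted p = 0.0490), and the reductase Decr2, higher by 0.30 (adjusted p = 0.0361). Ppara itself had a log2 fold change of 0.54 (SE 0.25, adjusted p = 0.233) for aged and 0.76 (SE 0.25, adjusted p = 0.0393) for middle-aged against young livers. Cyp4a10, a fatty acid hydroxylase widely used as a readout of PPARα, had 218, 56.0, 227 and 222 normalised counts in young livers, 940.3, 768, 222 and 397 in middle-aged and 262, 880.4, 3422 and 2462 in aged livers. Its order among aged livers, replicate 3 above 4, 2 and 1, was that of Acot3, Abcd2, Abcd3, Pex11a and Pex19, which was noticed after the values were seen. Of these, Pex19 had a log2 fold change of only 0.07 for aged against young livers. Acot4 and Acaa1b had other orders, and the share of all genes with this order was not counted. Young livers averaged 181 ± 83.2 and aged livers 1757 ± 1446 (SD, n = 4), with a DESeq2 adjusted p of 0.00155 from the fit across all genes. Of 16 tested PPARα target genes in a list that includes Cyp4a10, 6 were called between aged and young livers, all higher, beside 3.58% of all tested genes. Between middle-aged and young livers it was 1 of 14, near the 6.41% of all tested genes. This list was chosen with earlier results of these data known. Whether the spread of these genes between livers has a common source was not tested.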

How the data were processed

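RNA-seq had been performed on 12 mouse livers. The labels name a directional library kit, in an extraction text covering young and old livers only. The deposited table, made by the authors, holds whole-number read counts per gene that are not normalised. The submitters' processing notes name STAR 2.5.2b, SAMtools 1.9, featureCounts, DESeq2 1.26.0 and the builds mm10 and GRCm38; the strand setting is not given in the sources used here. Identifiers were matched to GENCODE M21 (53360 of 53465). The spike-ins (92) were left out of library sizes and tests. Counts were fitted with DESeq2 1.42.0 in R 4.3.3, all 12 livers together with age as the only term. Wald tests compared pairs of ages and a likelihood ratio test all 3, with Benjamini-Hochberg adjustment over all genes tested. On simulated data for aged against young livers, 73% of 200 genes changed 2-fold among 11804 were recovered, and 12.05% of calls were false. Alternatives included edgeR 4.0.16, other scalings and filters, and leaving out livers. Samples were taken as separate animals. Named in full were members called in any test, Pex5, Pex7, Pex11a, Acaa1a, Acaa1b, Cat and Uox. Other members were given by range and count, with those singled out among them chosen after their values were seen. The members and lists were chosen with earlier results of these data known. Promoter sequences are from RefSeq.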

Additional observations from a re-analysis of the deposited data

Results flagged for a closer look

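Nudt7 in middle-aged replicate 1, at 6565 normalised counts, stood apart from the other middle-aged livers (4608 to 4872). Hao1 in young replicate 4, at 3158, stood apart from the other young livers (3574 to 3649). Of 42 groups of 4 livers looked at, 2 held such a liver, and chance gives about 1 in 20 groups, or 2.1. Spike-in RNAs, which enter no comparison above, took at least 1.59% of all counts in each library and at most 10.6%.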

How the results depend on the processing

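Of 1008 values of named members under alternatives, 921 stayed on their side of the threshold, 69 lost a call, 18 gained one and 0 called values reversed. Of the 921, 36 that were called neither way changed sign. Members called between aged and young livers numbered 3 with only the groups compared, 2 within replicates 1 and 2, 3 without young replicate 3 and middle-aged replicate 1, and 2 with edgeR after filtering, an alternative chosen after seeing the data. Between middle-aged and young livers they numbered 9 with only the groups compared, 2 within replicates 3 and 4 and 3 with edgeR after filtering. Between aged and middle-aged livers each of the following gave 1: within replicates 1 and 2, without young replicate 3 and middle-aged replicate 1, and edgeR after filtering. Over the 3 ages edgeR after filtering gave 3. Leaving out each liver gave 2 to 11, 4 to 7, 2 to 3 and 5 to 12 members in these comparisons, with 12 without aged replicate 1. The causes were not tested. edgeR called 880, 1154, 446 and 1494 genes without a count filter and 172, 280, 13 and 233 with it, against 484, 727, 117 and 865 with DESeq2.

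The Pex minus enzyme median for middle-aged against young livers was 0.167 within replicates 1 and 2 and 0.0824 without young replicate 3 and middle-aged replicate 1. Leaving out each liver gave -0.0212 to 0.0779 there, -0.0390 to 0.0319 for aged against young and -0.0385 to 0.0813 for aged against middle-aged livers.

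With total-count scaling the median of all genes moved by 0.116 and 0.109 in the comparisons with young livers, the share of calls that were higher rose from 52.3% to 82.3% and from 54.7% to 84.1%, and 787 and 1000 genes were called. Members then called numbered 5 (4 higher, 1 lower) and 6 (4 higher, 2 lower).

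Replicate numbers are shared between ages, but the deviations of same-numbered livers correlated between -0.30 and 0.16 with mixed sign, so the numbers were not taken as pairs. With the replicate block, 4, 5, 2 and 6 members were called, and 655, 385, 426 and 451 genes. The planned search for carboxy-terminal targeting motifs was not run, since no protein sequences were used here. Low counts limit Acot3, Abcd2, Hao2 and Dao.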
